A study of Mus musculus with 6 samples.

Results

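The plasminogen activator system and fibronectin were followed through 9 genes, chosen by name for what their proteins do: the activators Plau and Plat, the receptor Plaur, the inhibitors Serpine2 and Serpinb2, the clotting initiator F3, the matrix protein Fn1 and the crosslinking enzymes Tgm2 and F13a1. These are 9 of the 36047 genes to which the deposited transcripts could be joined, and all 9 passed the filter on low counts. The choice was made with earlier results of these data known. RNA was sequenced from the infarct area of C57BL6 hearts taken 48 h after ischemia/reperfusion (I/R), with 3 female mice given LGK974 and 3 given DMSO, all labelled as 12 weeks old. LGK974 is a small molecule that inhibits Porcupine, the enzyme that lipidates Wnt proteins before secretion. It was given by oral gavage from the end of surgery onwards, and the controls received its solvent in the same buffer. Both groups had the same transient occlusion of the left anterior descending artery, so no uninjured heart enters the comparison. The question was which members of this system differed in the infarct when Wnt secretion was blocked.

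Plasminogen activators are secreted proteases that cut plasminogen into plasmin, the enzyme that dissolves fibrin and also attacks other matrix proteins. Urokinase acts mainly at the cell surface, where its receptor holds it, and tissue-type activator acts mainly on fibrin, while serpins block both by forming a covalent complex with the protease. In a healing infarct, fibrin and fibronectin build the provisional matrix on which macrophages and fibroblasts move, and transglutaminases such as factor XIII and tissue transglutaminase fasten these proteins to each other.

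Fibronectin is built from repeated folds, and its transcript carries a pair of cassette exons that each encode a whole type III repeat. They are named extra domain B (EDB) and extra domain A (EDA), and they are spliced in or out depending on the cell. Both are shown here because the share of transcripts that hold them is a measure within the gene, which needs no scaling between libraries. Both lie on chromosome 1 of GRCm38 on the minus strand, EDB at chr1:71613763-71614035 as exon 25 of the 46 exons of transcript Fn1-201, and EDA at chr1:71603660-71603929 as exon 33. EDB has 273 bases and EDA 270, and both lengths are whole multiples of 3, so either exon can be skipped without a shift of the reading frame. The capitals mark the exon, and the lower-case letters are the 10 bases of the neighbouring exons on each side, as the GENCODE transcript gives them.
EDB: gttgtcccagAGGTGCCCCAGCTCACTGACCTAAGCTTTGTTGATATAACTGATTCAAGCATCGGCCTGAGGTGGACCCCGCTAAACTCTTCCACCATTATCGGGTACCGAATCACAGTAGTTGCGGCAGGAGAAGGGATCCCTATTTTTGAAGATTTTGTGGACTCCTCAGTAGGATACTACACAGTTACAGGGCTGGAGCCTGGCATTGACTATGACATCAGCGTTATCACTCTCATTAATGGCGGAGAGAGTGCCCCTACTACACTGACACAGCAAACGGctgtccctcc
EDA: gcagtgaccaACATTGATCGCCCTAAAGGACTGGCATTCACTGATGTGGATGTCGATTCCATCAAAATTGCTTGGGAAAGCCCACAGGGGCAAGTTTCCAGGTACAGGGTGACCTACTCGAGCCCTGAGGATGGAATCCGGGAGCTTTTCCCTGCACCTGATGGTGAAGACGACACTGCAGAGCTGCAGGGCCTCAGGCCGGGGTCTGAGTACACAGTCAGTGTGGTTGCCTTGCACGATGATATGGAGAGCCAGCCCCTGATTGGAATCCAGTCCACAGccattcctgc

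The 6 libraries held 41579787 to 80398211 estimated counts, and mitochondrial genes took 28.1 to 53.6% of them under LGK974 and 39.2 to 42.6% under DMSO. DMSO replicate 1 stood apart: its correlations of log2 CPM with the other libraries ran from 0.814 to 0.912, against 0.890 to 0.946 between the other 5. In this library 99.3% of 1503 olfactory, vomeronasal and taste receptor genes, which heart tissue is not known to use, had counts, against 60.3 to 88.5% in the others. The highest 5% of these receptor genes lay above 8.15 TPM, a length-corrected measure of transcript abundance, in DMSO replicate 1 and above 1.57 to 3.28 TPM in the others. Of the 9 genes, 6, namely Plau, Plaur, Plat, Serpine2, Serpinb2 and F3, were under that level in DMSO replicate 1. Plaur was also under it in DMSO replicate 2 and Serpinb2 in every library, while Fn1, Tgm2 and F13a1 were above it in every library. Cardiomyocyte markers were present in all libraries, as the labelled tissue requires, with 11 of 11 measured.

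By TPM, which allows levels of different genes to be set side by side, Fn1, Tgm2 and F13a1 were the 3 most abundant of the 9 genes in every library. Mean levels under LGK974 were 219.5 ± 210.4 TPM (SD, n = 3) for Fn1, 106 ± 56.1 for Tgm2 and 26.1 ± 7.31 for F13a1. Under DMSO, mean levels were 44.8 ± 14.8 TPM (SD, n = 3) for Fn1, 54.3 ± 19.8 for Tgm2 and 16.2 ± 4.27 for F13a1. Plat, Serpine2, Plau, Plaur and F3 followed with mean levels of 4.46 to 10.5 TPM under LGK974 and 3.85 to 8.57 under DMSO. For next-ranked genes among these 5, the ranges of mean ± SD overlapped. Under DMSO, Serpine2 ranked 4 and Plat 5 of the 9 genes in every library. Serpinb2 was last in every library, at 0.518 to 1.63 TPM.

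In edgeR's quasi-likelihood F test on 20094 genes, 0 (0%) passed the threshold of 0.05 on the Benjamini-Hochberg adjusted p-value, the lowest being 0.368. Hence no member was called, and directions below describe these libraries. At an unadjusted p-value under 0.05, 6.25% of tested genes were higher with LGK974 and 7.18% lower. DESeq2 called 0.852% of 23595 genes higher and 0.373% lower at an adjusted p-value under 0.05, and limma-voom called 0. Among the 9 members, 7 had a positive and 2 a negative log2 fold change, 3 (Fn1, Plau and Tgm2) had an unadjusted p-value under 0.05, and DESeq2 called 1, Fn1. The median log2 fold change of the 9 genes was 0.38, against −0.13 over all tested genes. In 3 members every LGK974 library lay above every DMSO library in CPM, counts scaled to library size with edgeR's TMM factors, as in 10.7% of all tested genes. Scaled by total counts alone, which raised the median of all genes by 0.21, this held in 1 member, Fn1, and in 4.72% of all tested genes.

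**Figure D1:**
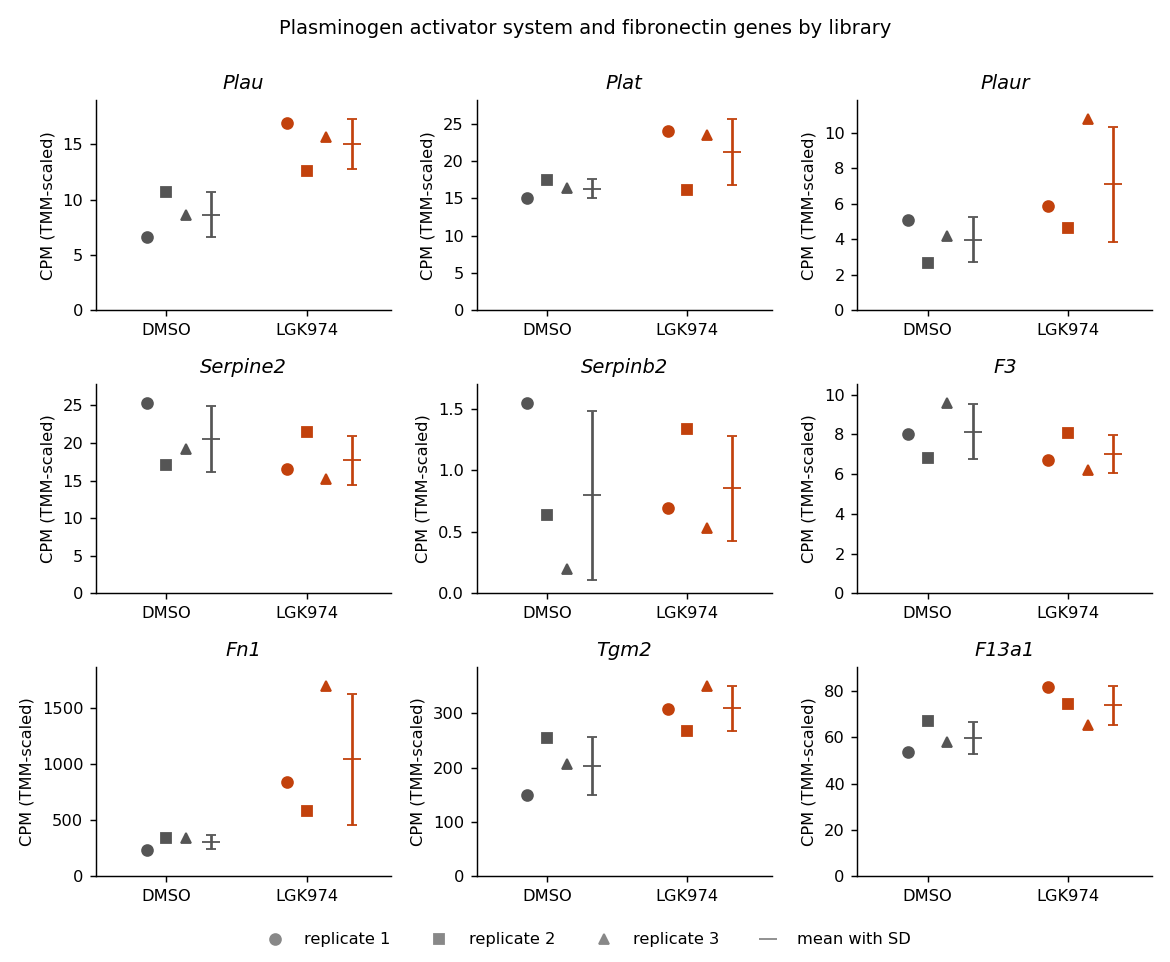
CPM (TMM-scaled, linear axis from 0) of the 9 genes in each library. Symbols stand for replicates 1, 2 and 3 of DMSO (grey) and LGK974 (orange), and the bars show the mean with its SD; Fn1, Plau and Tgm2 are the genes in which the groups do not overlap.

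Fn1, the gene of fibronectin (ENSMUSG00000026193, chromosome 1 from 71585520 to 71653200, minus strand), had the largest fold change of the 9 genes. It was measured at 843.7, 584.1 and 1697 CPM in LGK974 replicates 1, 2 and 3, and at 231.6, 338.6 and 344.3 CPM in the DMSO replicates. The lowest LGK974 library was above the highest DMSO library, and LGK974 replicate 3 stood far above the other 2 of its group. Group means of 1041 ± 582 and 304.8 ± 63.5 CPM (SD, n = 3) corresponded to 1.77 on the log2 scale (standard error 0.414, 95% interval 0.81 to 2.73, edgeR's adjusted p = 0.368). Without LGK974 replicate 3 the log2 fold change was 1.30, and without DMSO replicate 1 it was 1.62. DESeq2 gave 1.80 with an adjusted p-value of 4.83e-04, a call that was lost without DMSO replicate 1 (log2 fold change 1.61, DESeq2 adjusted p = 0.140). In a bulk sample, more cells of a type that makes fibronectin and more fibronectin RNA per cell cannot be told apart.

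Markers of cell types that make or bind fibronectin also differed between the libraries, though edgeR called 0 of them. DESeq2 called 5 fibroblast, 6 monocyte and macrophage and 1 cardiomyocyte marker, all higher, as it did 0.852% of all genes it tested. Among all 20094 tested genes, 8130 had a positive log2 fold change. Of 10 fibroblast markers, 10 had a positive log2 fold change (median 0.73, and 0.61 with 9 of 10 positive without DMSO replicate 1), and their summed level was 3540 to 6015 CPM under LGK974 and 1724 to 2550 under DMSO. Of 13 monocyte and macrophage markers, 12 had a positive log2 fold change (median 0.82, and 0.80 without DMSO replicate 1), with summed levels of 640.5 to 693 CPM under LGK974 and 336.5 to 452.5 under DMSO. No marker of either list was at 0 in all libraries. In the study's flow cytometry of whole hearts at the same time, leukocytes and inflammatory monocytes were fewer with LGK974. Macrophage numbers did not differ significantly there. That method counts cells, whereas the marker sums are RNA of the infarct area. Of 11 cardiomyocyte markers, 10 had a negative log2 fold change (median −0.44), with overlapping sums of 40558 to 58412 CPM under LGK974 and 47141 to 65447 under DMSO. Of 10 platelet and megakaryocyte markers, listed since platelets store fibronectin and factor XIII, 7 were tested and had 3 positive and 4 negative log2 fold changes (median −0.10), with sums of 38.8 to 45.4 CPM and 22.3 to 42.5 CPM. Positive log2 fold changes were found in 3 of 5 tested neutrophil markers (median 0.077), 6 of 8 mural (0.32), 2 of 8 mesothelial (−0.44) and 0 of 2 hepatocyte markers (−1.83). Without DMSO replicate 1 these medians were 0.14, 0.099, −0.27 and −1.47. Marker sums were read with TMM scaling only. The part of these mixtures in the results on the 9 genes was not tested.

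Tgm2 encodes tissue transglutaminase, which crosslinks matrix proteins and also binds fibronectin at the cell surface (ENSMUSG00000037820, chromosome 2 from 158116402 to 158146436, minus strand). Its level was 308, 267.7 and 350.3 CPM in the LGK974 replicates and 149, 255.2 and 206.4 CPM in the DMSO replicates. The groups did not overlap, but LGK974 replicate 2 and DMSO replicate 2 lay close to each other. On the log2 scale the difference was 0.60 (standard error 0.243, 95% interval 0.037 to 1.16, edgeR's adjusted p = 0.368) and 0.44 without DMSO replicate 1. By total counts the groups overlapped, with 219.4 CPM in LGK974 replicate 2 and 256.4 in DMSO replicate 2.

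The ratio of Fn1 to Tgm2 within a library does not depend on how libraries are scaled. Fn1 was the most abundant of the 9 genes by TPM in all 3 LGK974 libraries with Tgm2 next, and in all 3 DMSO libraries the order was the opposite. The TPM ratio of Fn1 to Tgm2 was 1.40, 1.18 and 2.75 in the LGK974 replicates and 0.865, 0.732 and 0.911 in the DMSO replicates. The groups did not overlap (means 1.78 ± 0.851 and 0.836 ± 0.0927, SD, n = 3 each), with a two-sided exact permutation p of 0.1. This is the smallest p that 3 mice against 3 can give, and the ratio was chosen after the values were seen.

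F13a1 encodes the catalytic subunit of factor XIII, the plasma transglutaminase that links fibrin to itself and to fibronectin, and it is made by macrophages and megakaryocytes (ENSMUSG00000039109, chromosome 13 from 36867178 to 37050244, minus strand). Its levels were 81.8, 74.4 and 65.1 CPM in the LGK974 replicates and 53.6, 67 and 57.8 CPM in the DMSO replicates. The groups overlapped, since DMSO replicate 2 lay above LGK974 replicate 3. These values gave a log2 fold change of 0.31 (standard error 0.167, 95% interval −0.075 to 0.70, edgeR's adjusted p = 0.398).

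The splicing of Fn1 was read from Kallisto's transcript estimates, as the TPM share of transcripts holding an exon among those that span it. EDB was held in 8.54, 9.32 and 10.7% of spanning Fn1 TPM in the LGK974 replicates and in 6.07, 7.31 and 6.88% in the DMSO replicates. The groups did not overlap, with means of 9.52 ± 1.08% and 6.76 ± 0.630% (SD, n = 3 each) and a difference of 2.76 percentage points (two-sided exact permutation p = 0.1, the smallest possible). Without DMSO replicate 1 the difference was 2.42 points. All of this share rests on a single annotated transcript, Fn1-201, the only one that holds EDB.

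EDA was far more common than EDB, at 51.1, 55.5 and 59.2% of spanning Fn1 TPM in the LGK974 replicates and 51.9, 47.7 and 39.5% in the DMSO replicates. Here the groups overlapped, because DMSO replicate 1 lay above LGK974 replicate 1. The means were 55.3 ± 4.04% and 46.3 ± 6.31% (SD, n = 3 each), a difference of 8.95 percentage points (two-sided exact permutation p = 0.2). Leaving out 1 library at a time gave differences of 5.51 to 11.7 points.

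At a further site of splicing, the variable region, the groups lay together. The exon that begins it starts at 71597281 on chromosome 1 in genome order and differs in length between transcripts. Transcripts with the full 467-base form held 71.4, 73.2 and 72.4% of the TPM of the 7 full-length coding transcripts in the LGK974 replicates and 63.8, 74.6 and 71.1% in the DMSO replicates. The LGK974 libraries lay within the range of the DMSO libraries (difference 2.54 percentage points, two-sided exact permutation p = 0.7). Forms lacking 75 bases or 360 bases of it differed by −1.52 and −1.02 points, each with a two-sided exact permutation p of 0.7. The variable region was looked at after values were seen. The 7 full-length coding transcripts held 62.8 to 76.4% of all Fn1 TPM and 88.1 to 94.0% of Fn1 counts.

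**Figure D2:**
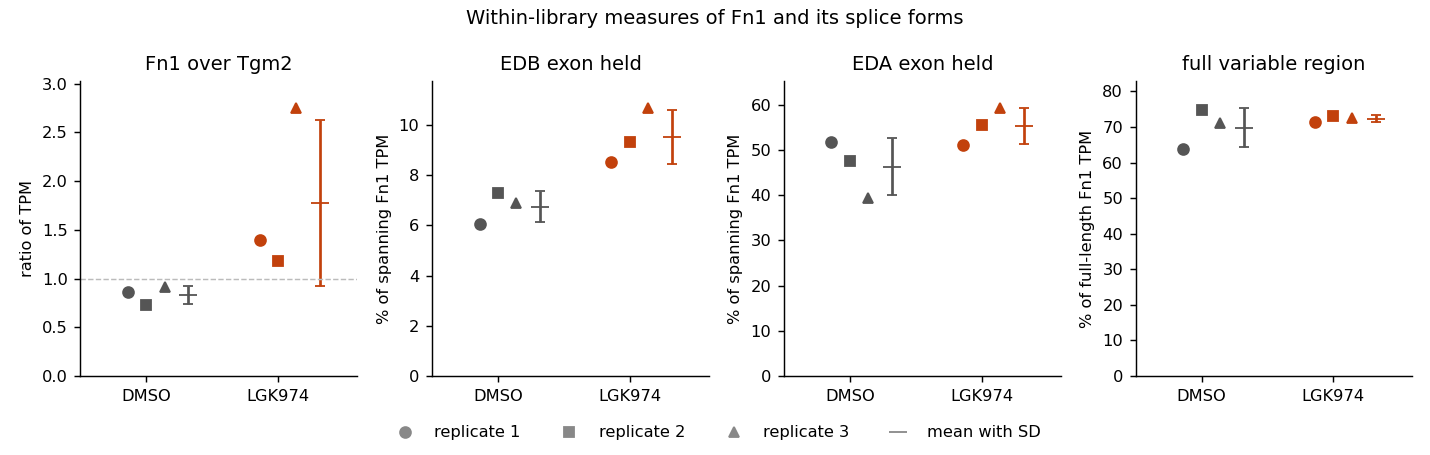
The ratio of Fn1 to Tgm2 TPM and the percent of spanning Fn1 TPM that holds the EDB or the EDA exon and of full-length coding Fn1 TPM that holds the full variable region, by library (linear axes from 0; symbols are replicates, bars the mean with its SD, n = 3). The groups are apart for the ratio and for EDB, overlap for EDA, and lie together for the variable region.

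Plau encodes urokinase, the activator that works at the cell surface (ENSMUSG00000021822, chromosome 14 from 20836660 to 20843385, plus strand). It was measured at 16.9, 12.6 and 15.6 CPM in the LGK974 replicates and at 6.63, 10.7 and 8.58 CPM in the DMSO replicates. Every LGK974 library was above every DMSO library, with DMSO replicate 1 the lowest of all. The log2 fold change was 0.80 (standard error 0.225, 95% interval 0.28 to 1.32, edgeR's adjusted p = 0.368), and 0.66 without DMSO replicate 1. Scaled by total counts, LGK974 replicate 2 at 10.3 CPM lay below DMSO replicate 2 at 10.8, and DESeq2's adjusted p-value was 0.119.

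Plat encodes tissue-type plasminogen activator, which endothelial cells release (ENSMUSG00000031538, chromosome 8 from 22757727 to 22782844, plus strand). It lay at 24.1, 16.2 and 23.4 CPM in the LGK974 replicates and at 15.1, 17.5 and 16.4 CPM in the DMSO replicates. LGK974 replicates 1 and 3 were above all DMSO libraries and replicate 2 was among them. Its log2 fold change was 0.38 (standard error 0.189, 95% interval −0.058 to 0.82, edgeR's adjusted p = 0.379). The 9 endothelial markers had a median log2 fold change of 0.037 and overlapping sums, 670.9 to 727.3 CPM under LGK974 and 600.9 to 836.5 under DMSO.

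Plaur encodes the urokinase receptor, a lipid-anchored surface protein of leukocytes and other migrating cells (ENSMUSG00000046223, chromosome 7 from 24462484 to 24475968, plus strand). Its levels were 5.86, 4.64 and 10.8 CPM in the LGK974 replicates and 5.10, 2.63 and 4.20 CPM in the DMSO replicates. One library, LGK974 replicate 3, was well above the rest, and DMSO replicate 1 lay between the other 2. The log2 fold change of 0.83 (standard error 0.386, 95% interval −0.062 to 1.73, edgeR's adjusted p = 0.369) was 0.48 without LGK974 replicate 3 and 1.06 without DMSO replicate 1. The same library was highest in Fn1 and Tgm2, and it also had the largest TMM factor, 1.39, and the lowest mitochondrial share.

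Both serpins among the 9 genes overlapped between the groups. Serpine2, or protease nexin 1, blocks urokinase, thrombin and tissue-type activator (ENSMUSG00000026249, chromosome 1 from 79794197 to 79861180, minus strand). It was measured at 16.5, 21.4 and 15.2 CPM in the LGK974 replicates and at 25.4, 17 and 19.2 CPM in the DMSO replicates. Its highest value was in DMSO replicate 1, and the log2 fold change of −0.21 (standard error 0.208, 95% interval −0.69 to 0.27, edgeR's adjusted p = 0.610) became −0.015 without that library.

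Serpinb2 encodes plasminogen activator inhibitor 2, a serpin of activated macrophages and epithelia that stays largely inside the cell (ENSMUSG00000062345, chromosome 1 from 107511423 to 107535478, plus strand). It had only 8 to 72 counts per library, at 0.69, 1.34 and 0.53 CPM in the LGK974 replicates and 1.55, 0.64 and 0.20 CPM in the DMSO replicates. No order of the groups can be seen in these values. In every library its TPM was below the level that the highest 5% of the receptor genes named above exceeded. The log2 fold change of 0.10 had a standard error of 0.848 (95% interval −1.87 to 2.07, edgeR's adjusted p = 0.962), and it ran from −0.26 to 1.04 as single libraries were left out. Its exons share 291 bases with Serpinb10 on the same strand, so reads there could be divided between these genes.

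F3 encodes tissue factor, the membrane protein that starts clotting when it binds factor VII (ENSMUSG00000028128, chromosome 3 from 121723537 to 121735048, plus strand). Its levels were 6.72, 8.10 and 6.22 CPM in the LGK974 replicates and 8.0, 6.83 and 9.60 CPM in the DMSO replicates. The highest level was in DMSO replicate 3 and the rest were mixed. F3 had a log2 fold change of −0.22 (standard error 0.215, 95% interval −0.72 to 0.28, edgeR's adjusted p = 0.614), and 0.034 without DMSO replicate 3.

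**Figure D3:**
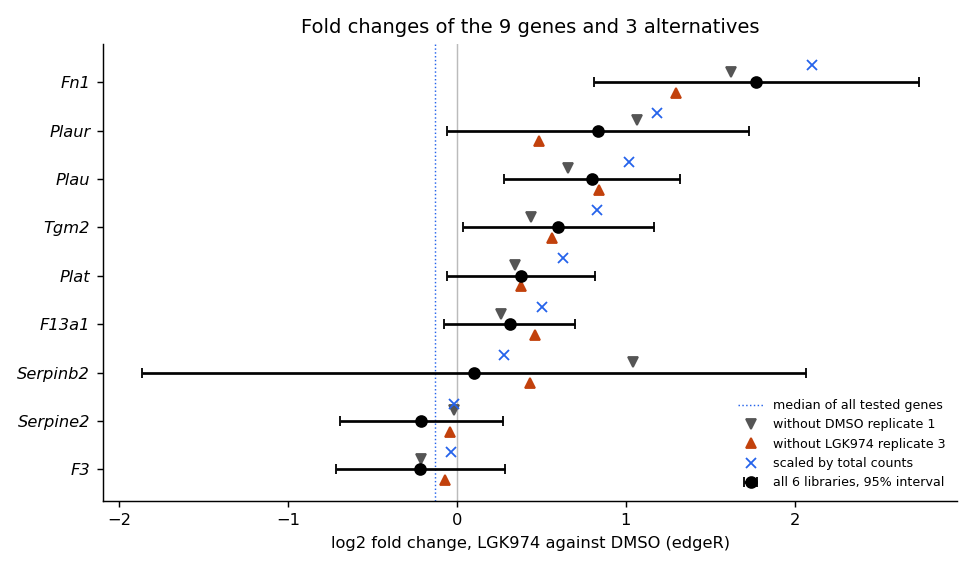
Log2 fold change of LGK974 against DMSO for the 9 genes (edgeR, black points with 95% intervals) and the value without DMSO replicate 1, without LGK974 replicate 3 and by total counts. The dotted line is the median of all tested genes at −0.13; the interval lies above 0 for Fn1, Plau and Tgm2, and Serpinb2 has the widest interval, from −1.87 to 2.07.

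For each member the leading transcript was the one with the largest share of its summed TPM. Tgm2-201 held 88.1 to 97.7% of Tgm2 TPM, F3-201 82.1 to 100% of F3 TPM and Plat-201 65.7 to 89.4% of Plat TPM. F13a1-201 held 60.7 to 75.9% of F13a1 TPM and Serpine2-201 26.2 to 62.7% of Serpine2 TPM. Plau-201, the only coding Plau transcript, held 53.1 to 100%, and its own level was 7.09, 3.90 and 11.7 TPM in the LGK974 replicates and 2.03, 3.02 and 3.83 TPM in the DMSO replicates, so the groups just did not overlap. Plaur-201, the only coding Plaur transcript, held no more than 27.7 to 48.9% of Plaur TPM. The leading Serpinb2 transcript, Serpinb2-204, is annotated as a target of nonsense-mediated decay and was at 0 in 3 of the 6 libraries. For Fn1 the leading transcript was Fn1-214, which holds EDA and lacks EDB. It held 34.0, 34.9 and 35.1% of Fn1 TPM in the LGK974 replicates and 29.4, 29.0 and 23.6% in the DMSO replicates, without overlap and with no test.

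The genes whose centred log2 CPM over the 6 libraries lay nearest to each member were searched among 8091 genes. Likeness is the root mean square difference of log2 CPM, given as a description with no test, since all genes of a library share its treatment and depth. The gene nearest to Fn1 was Tnc, which encodes the matrix protein tenascin C, at 0.10. Plau was nearest to Fbn1, the gene of the microfibril protein fibrillin 1, at 0.053, and Plaur to Inhba, a gene of the activin family, at 0.17. The nearest genes to Tgm2, Plat and F13a1 were Kpna2 at 0.023, Ddx21 at 0.067 and Btg3 at 0.061. Those nearest to F3, Serpine2 and Serpinb2 were Cep85l at 0.025, Stx8 at 0.079 and Cnga1 at 0.43, and the last lay farther off than any of the others.

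Beyond the 9 genes, 51 other genes of plasminogen activation, fibronectin binding and coagulation were read by role. Of these, 47 were tested, 24 with a positive and 23 with a negative log2 fold change, and 0 were called by edgeR. DESeq2 called 3, Anxa2, Thbs1 and Itgam, all higher, as it did 0.852% of all genes it tested. An unadjusted p-value under 0.05 was found for 12 higher and 1 lower, against 6.25 and 7.18% of all tested genes. In 14 every LGK974 library lay above every DMSO library and in 2 below, against 10.7 and 7.27% of all tested genes. By total counts this held in 4 (Anxa2, S100a10, Itgb2 and Pros1) and 2, against 4.72 and 3.83% of all tested genes. The median log2 fold change was 0.046. Without DMSO replicate 1 the median was 0.22 and 28 of 41 tested genes were positive.

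Of 5 genes for plasminogen and its receptors, 4 were positive, and 3 lay apart, or 2 by total counts. Among all tested genes the LGK974 libraries lay wholly above in 10.7%, or 4.72% by total counts. Anxa2, whose protein annexin A2 holds plasminogen and tissue-type activator at the membrane, was at 116.6 ± 15.7 CPM under LGK974 and 61.8 ± 12.7 under DMSO (SD, n = 3; log2 fold change 0.92, standard error 0.208, edgeR's adjusted p = 0.368). Its partner S100a10 had a log2 fold change of 0.78 (47.6 ± 8.0 and 27.8 ± 5.37 CPM), and Eno1, a glycolytic enzyme that also binds plasminogen at the surface, 0.68 (154 ± 30.8 and 96 ± 11.2 CPM). Plg, the plasminogen gene itself, which is made in liver, averaged 0.16 TPM over the libraries.

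Among 5 tested inhibitors, 1 had a positive log2 fold change and none lay apart. Over all tested genes, the LGK974 libraries lay wholly above in 10.7% and wholly below in 7.27%. Without DMSO replicate 1, 3 inhibitors were tested and 0 were positive. Serping1, the gene of the C1 inhibitor, which also blocks plasmin and contact-phase proteases, had a log2 fold change of 0.11 (standard error 0.293, edgeR's adjusted p = 0.864). Serpini1, which encodes neuroserpin, an inhibitor of tissue-type activator, had −0.37. A2m, a broad protease trap of plasma, had 2 to 148 counts per library with the highest count in DMSO replicate 1, and its log2 fold change of −2.40 became −0.096 without that library. Counts were also low, at 0 to 29 and 0 to 50 per library, for other negative inhibitors, and highest in DMSO replicate 1.

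Receptors that partner with Plaur, clear protease complexes or bind fibronectin had 9 of 11 log2 fold changes above 0, and in 7 the groups lay apart. By total counts they lay apart in 1 of these, Itgb2. Over all tested genes, the LGK974 libraries lay wholly above in 10.7%, and in 4.72% by total counts. Itgb1, the beta 1 integrin chain, had a log2 fold change of 0.39 (544.5 ± 41 and 414.1 ± 82 CPM, SD, n = 3), and Itga5, which pairs with it as the fibronectin receptor, 0.65 (176.8 ± 30.7 and 112.3 ± 22.9 CPM). Lrp1, the endocytic receptor that clears protease and inhibitor complexes, had 0.56 (629.4 ± 38.4 and 426.9 ± 104.4 CPM). All 3 were lowest in DMSO replicate 1, and without it their log2 fold changes were 0.28, 0.52 and 0.39. Itgam and Itgb2, the chains of the leukocyte integrin Mac-1, had log2 fold changes of 0.95 and 1.01 and are named after their values were seen, since 1 of them was called by DESeq2.

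In the provisional matrix, Thbs1, the gene of thrombospondin 1, was at 91.4, 75.3 and 197.3 CPM in the LGK974 replicates and 43.3, 61.9 and 50.7 CPM in the DMSO replicates. By total counts the groups overlapped. As in Fn1, LGK974 replicate 3 was the highest (log2 fold change 1.22, standard error 0.365, edgeR's adjusted p = 0.368, and 0.75 without that library). Fgl2, a fibrinogen-like protein of macrophages and T cells, had a log2 fold change of 0.39 and Vwf, von Willebrand factor, −0.37 (edgeR's adjusted p = 0.387 for Vwf). In Vwf every LGK974 library lay below every DMSO library, as in 7.27% of all tested genes. The fibrinogen chain genes Fga and Fgb did not pass the filter. Other transglutaminases were scarce beside Tgm2 and F13a1, with mean levels of 0.75 TPM for Tgm1, 0.52 for Tgm3 and 0.35 for Tgm5. These means lay under the levels of the taste and smell receptor genes given above, of which the lowest was 1.57 TPM. Of 4 tested transglutaminases 1 was positive, and without DMSO replicate 1 it was 2 of 3.

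Coagulation genes had 7 positive and 10 negative log2 fold changes, with a median of −0.16, near that of all genes. Without DMSO replicate 1 the median over all genes was −0.021, and the coagulation genes had 0.16 with 10 of 16 positive. The most abundant by TPM was Tfpi, the inhibitor of the complex of tissue factor and factor VII, with a log2 fold change of −0.36 (45.2 ± 9.68 and 57.9 ± 8.17 CPM, SD, n = 3). F2r, the main thrombin receptor, had 0.74 (35.4 ± 4.75 and 21.3 ± 6.54 CPM) with the groups apart by TMM and overlapping by total counts. Thbd, thrombomodulin, which turns thrombin towards activation of protein C, had −0.048.

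**Figure D4:**
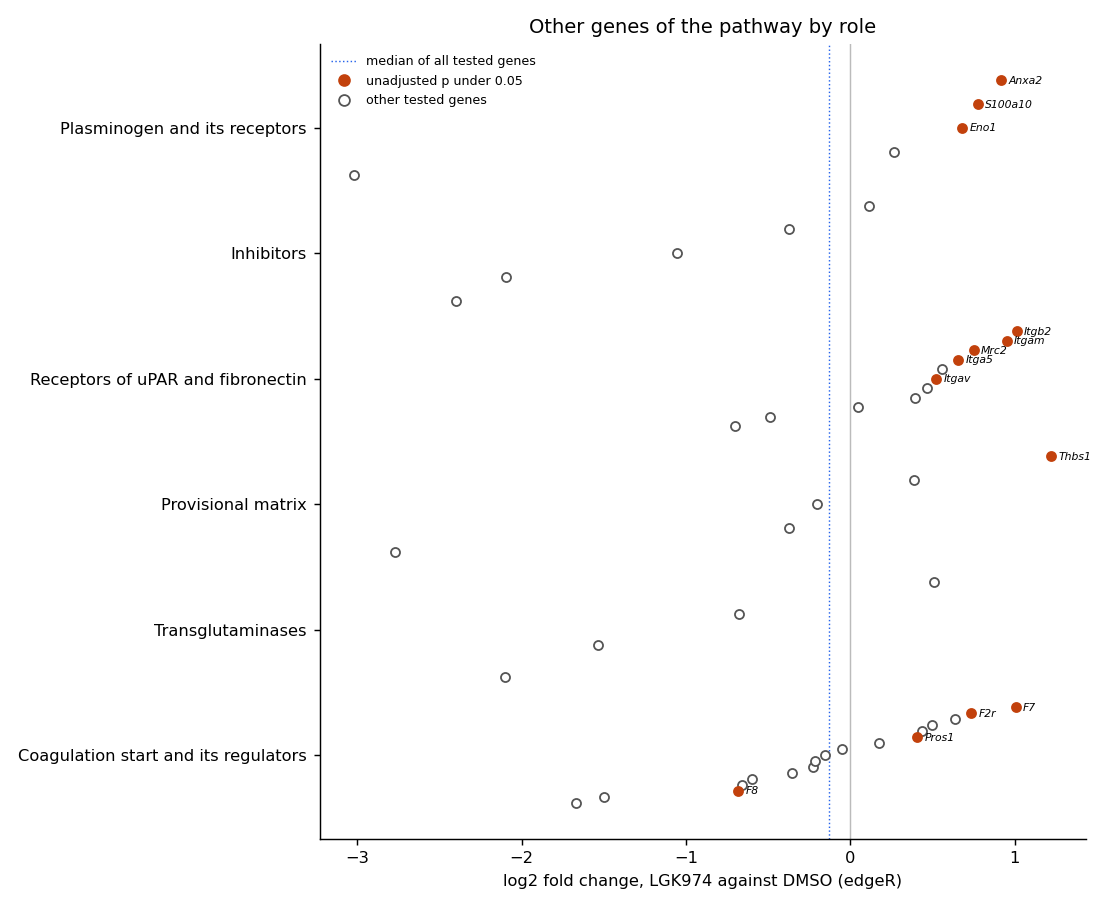
Log2 fold change of LGK974 against DMSO (edgeR) for the 47 tested genes of the pathway list, by role, 1 point a gene. Filled points with names had an unadjusted p-value under 0.05, 12 of them above 0 and 1 below, against 6.25 and 7.18% of all tested genes. After adjustment 0 passed, and the dotted line is the median of all tested genes at −0.13.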

How the data were processed

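Per the labels and the study's methods, RNA of the infarct area was depleted of ribosomal RNA, made into libraries with a capture kit and quantified with Kallisto on GRCm38 transcripts. The version, strand setting and trimming are not given in the sources used here. Each file that the authors deposited lists 118489 transcripts, with the estimated count and the TPM of each. TPM corrects for transcript length and for the sum of each library, and an estimated count need not be whole because reads shared by transcripts are divided.

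Transcripts were joined to genes with GENCODE's annotation of GRCm38 (98.6% of transcripts, 99.6 to 99.7% of counts), and counts were summed per gene and rounded. The filter kept genes that reached 10 counts in 3 or more libraries, and these were tested with edgeR 4.0.16 (R 4.3.3), using TMM factors (0.820 to 1.39 under LGK974, 0.828 to 1.00 under DMSO), treatment as the only factor, the quasi-likelihood test and Benjamini-Hochberg adjustment over all tested genes at 0.05. CPM are TMM-scaled. Standard errors were derived from the F statistic. DESeq2 1.42.0, limma-voom (limma 3.58.1), other scalings, filters, gene types, counts scaled from TPM, a replicate block and leaving out each library were alternatives. DESeq2 without DMSO replicate 1, the Fn1 to Tgm2 ratio, the variable region and the counts of groups apart under other scalings were added after the values were seen. Shares within Fn1 and ratios of genes were compared with two-sided exact permutation tests, which with 3 mice against 3 cannot give a p-value below 0.1. Tables were made in Python 3.11.15 with pandas 2.3.3 and NumPy 2.4.6, exact tests with SciPy 1.17.1 and figures with matplotlib 3.10.9.

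The 9 members, the pathway list and the marker lists were chosen with earlier results of these data known, and 1 gene of the pathway list is not reported here. Named in the text are the 9 members, up to 3 pathway genes of each role with the highest mean TPM, any gene past the threshold, the nearest gene to each member with a mean of at least 10 CPM (prior count 0.5) and the leading transcripts. All other names were chosen after their values were seen. The p-values of the fits set the difference between groups against variation among these 6 mice only, which edgeR estimates with help from all tested genes. Those of the permutation tests rank the difference among the possible splits of these 6 mice. Overlapping genes can share reads: exons of Fn1 share 292 bases with Apol7d, those of F13a1 share 74 with Gm30489, and those of Tgm2 share 633 with Gm20412 and 370 with Rprd1b, all on the other strand.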

Additional observations from a re-analysis of the deposited data

How the results depend on the processing

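Over 19 alternatives each, the 9 members gave 171 log2 fold changes, of which 165 kept their direction and stayed short of an adjusted p-value of 0.05. Of the others, 3 passed it: Fn1 and Plau without a filter on low counts (edgeR's adjusted p = 0.0145 and 0.0486) and Fn1 with DESeq2. Another 3 changed direction with a library left out: Serpinb2, which ran from −0.26 (without LGK974 replicate 2) to 1.04 and was −0.23 without DMSO replicate 3, and F3, which ran from −0.28 to 0.034 (without DMSO replicate 3). The number of members called was 0 with edgeR, 2 without a filter and 1 with DESeq2. Of all tested genes, edgeR called 0, or 1206 without a filter, and 0 to 2 when single libraries were left out, the 2 being found without DMSO replicate 1. Without a filter 34257 genes were tested, and 305 (0.89%) were called higher, the rest of the 1206 being lower. DESeq2 called 289, and 321 without DMSO replicate 1. Of the pathway list, 3 genes were called without a filter (Thbs1, Itgam and Itgb2), 3 by DESeq2 and 3 by DESeq2 without DMSO replicate 1 (Anxa2, Itgam and F10). For DESeq2 without DMSO replicate 1, the share of all genes called was not computed, so these calls have no background beside them. The groups were apart in 3 members with TMM, with DESeq2's size factors, with upper-quartile factors and without mitochondrial genes, and in 1 by total counts. LGK974 libraries lay wholly above in 10.7% of all tested genes with TMM and in 4.72% by total counts. For the other scalings this share was not computed.

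Over 20 pathway genes named in the text, Itgam and Itgb2 included, 359 of 377 values kept direction and side and 8 passed the threshold. The groups were apart higher in 14 pathway genes with TMM and in 4 by total counts, against 10.7 and 4.72% of all tested genes. Direction changed for Serping1 (−0.020 with DESeq2 without DMSO replicate 1, −0.12 to 0.52 with single libraries left out), for Tgm3 (0.10 with DESeq2 without DMSO replicate 1, −1.01 to 0.13 with single libraries left out) and for Thbd (0.15 by total counts, 0.087 without a filter, −0.13 to 0.094 with single libraries left out). The causes were not tested. The Fn1 to Tgm2 ratio in estimated counts differed by 1.74 between groups, in place of 0.941 in TPM.

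The replicate numbers occur in both groups, but same-numbered libraries did not all deviate together (correlations 0.477, −0.045 and 0.421), and LGK974 replicate 2 correlated best with DMSO replicate 3. With the numbers as a replicate block, 0 tested genes were called, and Fn1 had a log2 fold change of 1.66 (edgeR's adjusted p = 0.124) and Plau 0.81 (0.175).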
